A study of Homo sapiens with 10 samples.

Results

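AP21967, the small molecule that switches on the inducible vectors of this study, was measured without any progestin in 3 T47D breast cancer lines. These are the arrays given vehicle in place of R5020, 6 of the 10 in the series, which form 3 pairs of AP21967 against no AP21967. The iKR line carries the K388R progesterone receptor, which cannot be SUMOylated, the iWT line the wild-type receptor, and the iEV line the same vector with no receptor. All are clonal lines made from T47D cells that lack the receptor, 1 clone per vector, so a property of a clone and a property of its vector cannot be told apart. AP21967 was given for 2 days in the induced cultures, all cultures were serum starved, and ethanol was the vehicle for the last 6 h. RNA from each condition was hybridized to 1 Affymetrix oligonucleotide array. Values below are log2 signals, and differences are AP21967 minus no AP21967 within a line.

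TIMP1, S100A8 and TM4SF1 were higher with AP21967 in both receptor lines and not in iEV. Genes of mitosis were slightly higher in every line, iEV included, with medians of 0.16 in iKR, 0.24 in iWT and 0.11 in iEV over 33 genes. Interferon-stimulated genes were higher in iWT, with 11 of 33 past 1.2 fold (33.3%, against 2.14% of all genes), while 4 were past it in iKR (12.1%, against 2.06%) and 1 in iEV (3.03%, against 1.1%). Differences were small in every line, and over all genes 0 genes passed an adjusted p of 0.05 by limma for an effect shared by the 3 lines or for one in the receptor lines over iEV.

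The progesterone receptor is a ligand-activated transcription factor of the steroid receptor family. Progestins such as R5020 make it bind DNA at hormone response elements and recruit coactivators. Without ligand the receptor is mostly held by chaperones, but it can also be phosphorylated and can regulate some genes, which is why its ligand-independent actions are studied in breast cancer cells. SUMOylation of the lysine that K388R removes restrains its activity at many promoters. AP21967 is a rapamycin analog that joins an FKBP fusion protein to an FRB fusion protein and so assembles a transcription factor on the inducible promoter. It is engineered to bind poorly to cellular mTOR.

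Cell type markers were checked first. Of 20 markers of luminal breast epithelium, 19 reached log2 10 on at least 1 array, and their mean was 12.51 to 12.64 on the AP21967 arrays and 12.52 to 12.62 on the others. With AP21967, 3 of the 20 were past 1.2 fold lower in iKR (against 1.35% of all genes), namely ESR1 (-0.445), SPDEF (-0.32) and TFF3 (-0.31). No luminal marker was past it higher in iKR, or in either direction in iWT or iEV. None of the markers of fibroblasts (15 on the array), leukocytes (12) or endothelium (9) reached log2 10. Of 13 basal or myoepithelial markers, 3 did, and their mean lay between 7.93 and 8.01 with AP21967 and between 7.93 and 8.06 without.

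PGR, the receptor gene, was at 12.08 with AP21967 and 10.65 without it in iKR. In iWT it was at 11.34 with AP21967 and 11.12 without. In iEV, whose vector holds no receptor, it was at 6.17 with AP21967 and 6.25 without. The signal was thus higher with AP21967 by 1.43 in iKR and 0.22 in iWT, and the difference in iEV was -0.08. Both receptor lines without inducer were already far above iEV, so receptor mRNA was present in these cultures before induction. Between R5020 arrays the difference was -0.05 in iKR and 0.12 in iWT. The arrays measure mRNA, and receptor protein was not analysed here.

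**Figure D1:**
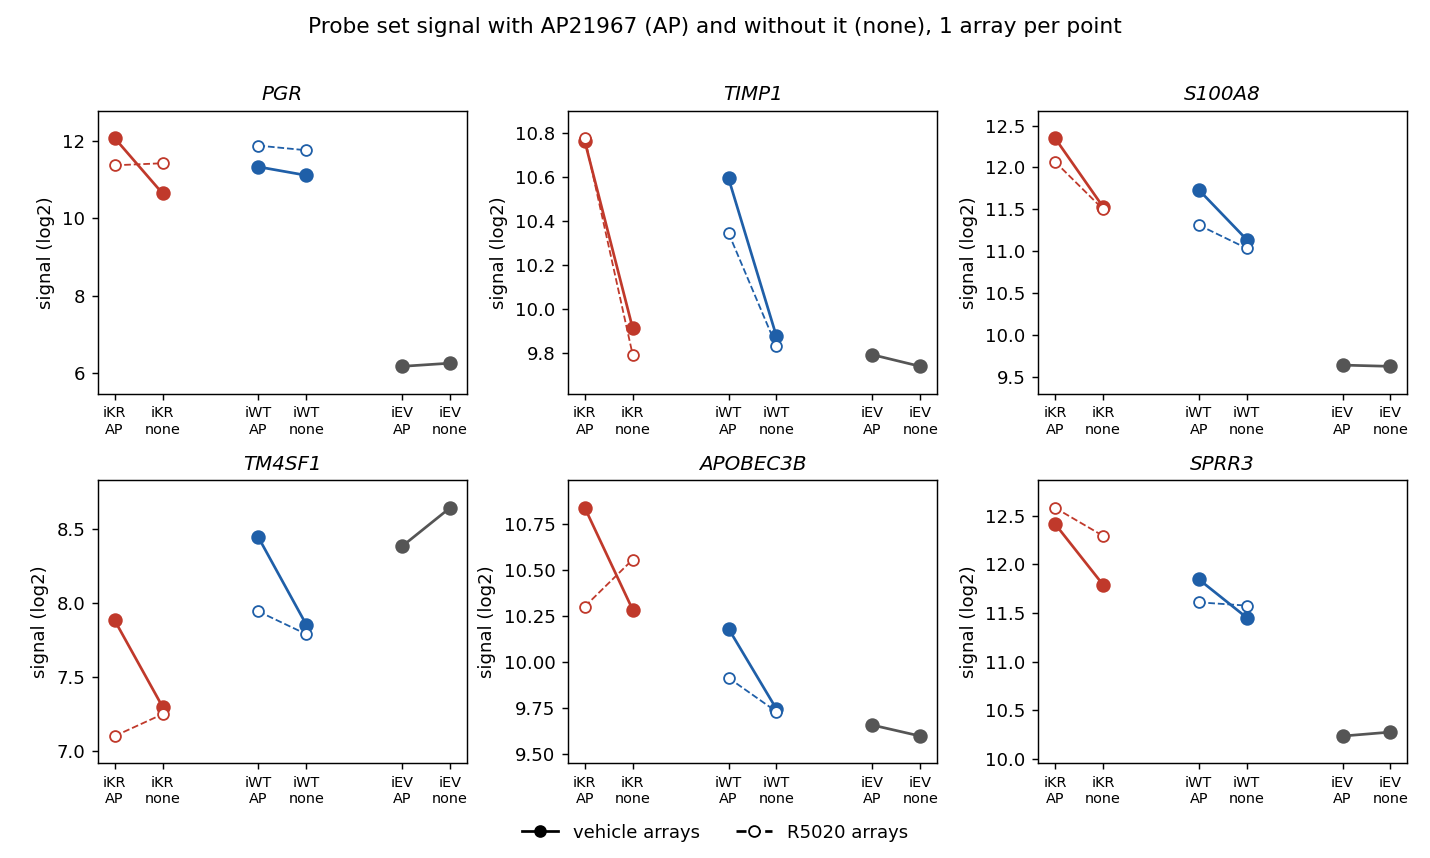
Log2 signal of PGR and 5 genes on single arrays (y axis, each panel its own range) by line and inducer state (x axis), with filled points for vehicle arrays, open points for R5020 arrays and lines joining the arrays of 1 line. TIMP1 and S100A8 are higher with AP21967 in iKR and iWT on vehicle and on R5020 arrays and level in iEV, whereas TM4SF1 in iKR is higher on the vehicle arrays (0.59) and not on the R5020 arrays (-0.15).

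The size of the response was next set against the number of genes measured. Of 10911 genes, 12 were past 1.5 fold in iKR (0.11%), 9 in iWT (0.0825%) and 4 in iEV (0.0367%), 22 genes in all. Of the 22, 19 were past it in 1 line only and 3 in both receptor lines, namely TIMP1, S100A8 and TM4SF1. At 1.2 fold, 225 genes were higher in iKR (2.06%), 233 in iWT (2.14%) and 120 in iEV (1.1%). At the same fold, 147 were lower in iKR (1.35%), 190 in iWT (1.74%) and 208 in iEV (1.91%). The SD of the differences over genes was 0.12 in iKR, 0.12 in iWT and 0.11 in iEV, so iEV without a receptor spread nearly as widely as the receptor lines. For the range of the central 95% of genes, this meant -0.22 to 0.25 in iKR, -0.24 to 0.25 in iWT and -0.25 to 0.21 in iEV.

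The receptor lines resembled each other more than either resembled iEV. Across genes the differences in iKR and iWT gave Pearson's r of 0.295 and Spearman's rho of 0.292. Those of iKR and iEV had an r of -0.03 and a rho of -0.03, and those of iWT and iEV an r of 0.09 and a rho of 0.10. The 3 differences share no array, and genes are not independent replicates, so the correlations are given as a description. Past 1.2 fold, 38 genes were higher in iKR and in iWT, which is 16.9% of the iKR genes and 16.3% of the iWT genes. iKR and iEV shared 11 (4.89% of the iKR genes and 9.17% of the iEV genes), and iWT and iEV shared 8 (3.43% and 6.67%). Of the genes lower, iKR and iWT shared 18 (12.2% of the iKR genes and 9.47% of the iWT genes). iKR and iEV shared 3 (2.04% and 1.44%), and iWT and iEV 8 (4.21% and 3.85%).

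**Figure D2:**
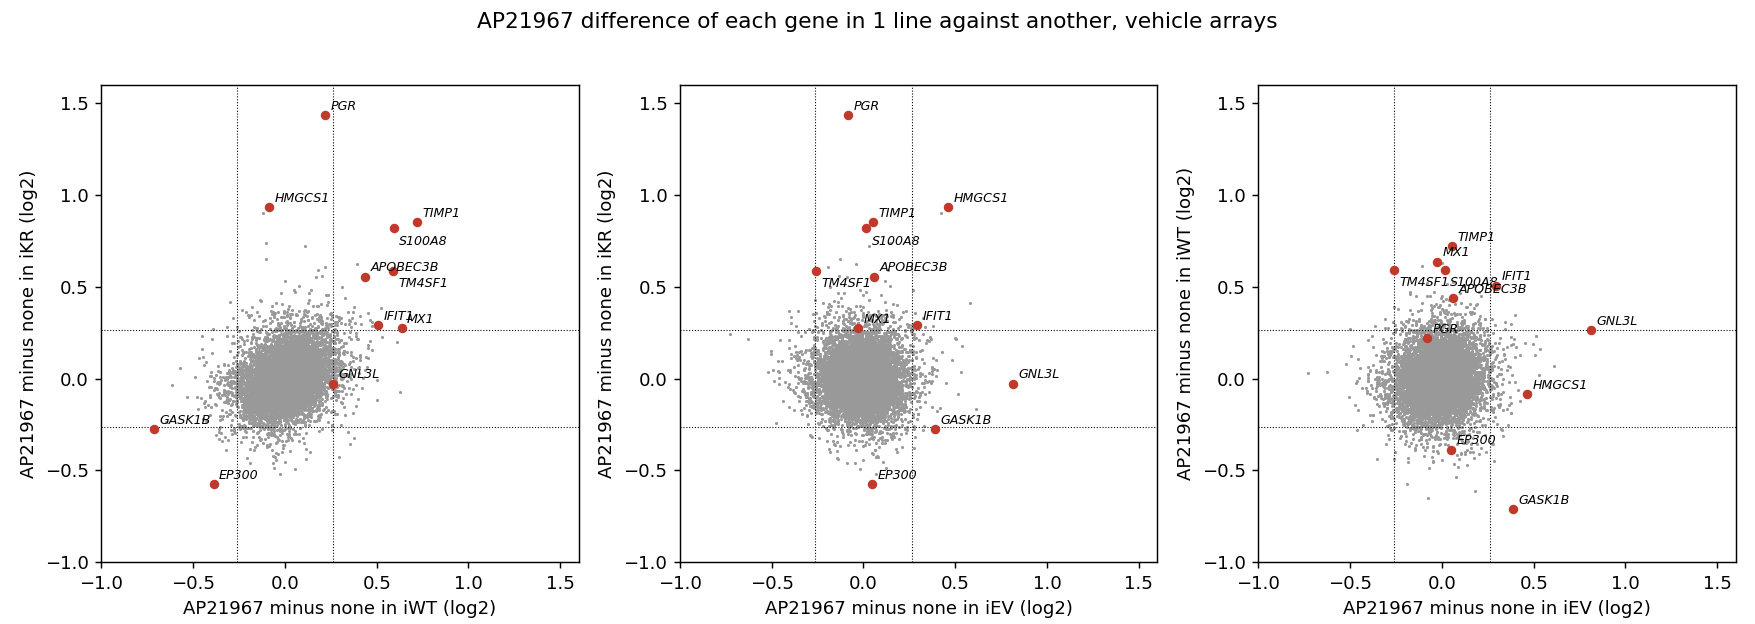
Each point is 1 of 10911 genes, with the AP21967 minus no AP21967 difference (log2, vehicle arrays) in 1 line on each axis and dotted lines at 1.2 fold. The cloud is tilted upward for iKR against iWT (r of 0.295) and round in both panels with iEV, and TIMP1, S100A8, TM4SF1 and APOBEC3B lie apart in both receptor lines.

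Genes that were past 1.2 fold in both receptor lines and under it in iEV were examined as the candidates for an effect that needs the vector's receptor. There were 37 higher (0.339% of genes) and 15 lower (0.137%). The cut-off admits genes that moved nearly as far in iEV, such as ZNF426 (0.29, 0.27 and 0.25 in iKR, iWT and iEV). ZNF426, ADGRE2, NDC80 and ABO are also named below among the differences shared by all 3 lines. For those genes the cut-off does not separate the receptor lines from iEV. In the limma fit of the receptor lines' mean difference minus that of iEV, 0 genes passed an adjusted p of 0.05 in either direction (0%), and the lowest adjusted p was 0.33. At an unadjusted p under 0.05 there were 589 genes higher and 399 lower. That fit has 1 residual degree of freedom, since only the spread between iKR and iWT measures error. Leaving iEV out and testing the mean of iKR and iWT alone, limma called 3 genes higher (0.0275%) and 0 lower, namely TIMP1, TM4SF1 and S100A8. With an intensity trend in limma's prior, the fit against iEV called 6 genes higher, these 3 with SPRR3, CIB2 and CDC42EP3, and 7 lower, EPRS1, FASN, GASK1B, GATC, GNL3L, GTF2I and LAMB3.

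TIMP1 encodes a secreted inhibitor of matrix metalloproteinases. It was at 10.76 with AP21967 and 9.91 without in iKR, at 10.59 and 9.87 in iWT, and at 9.79 and 9.74 in iEV. Both induced receptor-line arrays were thus above the other 4, which lay within a range narrower than either difference. The differences were 0.85 in iKR, 0.72 in iWT and 0.05 in iEV. The mean of the receptor lines was 0.79 with an SE of 0.06 (adjusted p = 0.022 by limma over iKR and iWT). The excess over iEV was 0.73 with an SE of 0.10 (adjusted p = 0.35 by limma). On the R5020 arrays, which are other arrays of the same lines, AP21967 gave 0.99 in iKR and 0.52 in iWT, a difference that also holds the response of the induced receptor to ligand. Of 22 measured metalloproteinase and inhibitor genes, TIMP1 was the only one past 1.2 fold higher in iKR and in iWT, and the list's medians were -0.02 in iKR, 0.04 in iWT and -0.01 in iEV. TIMP2, another inhibitor, had differences of 0.10, 0.10 and -0.01 in iKR, iWT and iEV.

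S100A8 encodes a calcium-binding protein that pairs with S100A9 to form calprotectin. It was at 12.35 with AP21967 and 11.53 without in iKR, at 11.73 and 11.14 in iWT, and at 9.64 and 9.63 in iEV. Both receptor lines were above iEV already without AP21967, which a single clone per vector cannot assign to the receptor. The differences were 0.82, 0.59 and 0.02 in iKR, iWT and iEV, and the mean of the receptor lines was 0.71 with an SE of 0.07 (adjusted p = 0.040 by limma over iKR and iWT, and 0.35 for the excess over iEV). A second, dimmer probe set gave 0.65, 0.14 and 0.09, so the iWT value depends on the probe set. Between R5020 arrays it was 0.57 in iKR and 0.28 in iWT. S100A9 had differences of 0.33, 0.23 and -0.07 in iKR, iWT and iEV and was not called (adjusted p = 0.58 for the 3 lines by limma).

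TM4SF1 encodes a small membrane protein related to the tetraspanins. It was at 7.88 with AP21967 and 7.30 without in iKR, at 8.44 and 7.85 in iWT, and at 8.38 and 8.64 in iEV. It was higher by 0.59 in both receptor lines and lower by 0.26 in iEV, just inside 1.2 fold, and without AP21967 its level was highest in iEV. The mean of the receptor lines was 0.59 with an SE of 0.06 (adjusted p = 0.040 by limma over iKR and iWT), and the excess over iEV was 0.85 with an SE of 0.10 (adjusted p = 0.33 by limma). The other 3 probe sets gave 0.59, 0.32 and -0.09 in iKR, 0.22, 0.20 and 0.09 in iWT, and -0.16, -0.13 and -0.13 in iEV. On the R5020 arrays the difference was -0.15 in iKR and 0.15 in iWT, so the gain did not recur there in iKR and was smaller in iWT.

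The same 3 genes are shown with the 250 bases before their starts, since a direct action of the receptor would be sought there. The sequences are RefSeq's for GRCh38.p14, and the letters GNACANNNTGTNC of a hormone response element were searched on both strands from 250 bases before to 50 after the start. TIMP1 lies on chrX:47582186-47582435, plus strand, S100A8 on chr1:153391189-153391438, minus strand and TM4SF1 on chr3:149377650-149377899, minus strand. No capitals appear because none of the windows holds these letters, which says nothing of elements elsewhere.
TIMP1: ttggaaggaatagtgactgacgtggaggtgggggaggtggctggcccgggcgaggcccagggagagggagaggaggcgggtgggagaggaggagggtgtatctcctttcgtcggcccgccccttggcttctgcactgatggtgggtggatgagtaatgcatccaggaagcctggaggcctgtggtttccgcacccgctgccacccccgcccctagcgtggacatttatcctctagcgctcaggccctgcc
S100A8: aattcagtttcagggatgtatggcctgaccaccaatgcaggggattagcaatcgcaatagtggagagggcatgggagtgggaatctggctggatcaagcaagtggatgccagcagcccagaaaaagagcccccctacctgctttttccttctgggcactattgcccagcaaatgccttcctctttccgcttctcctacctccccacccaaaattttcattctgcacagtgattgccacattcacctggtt
TM4SF1: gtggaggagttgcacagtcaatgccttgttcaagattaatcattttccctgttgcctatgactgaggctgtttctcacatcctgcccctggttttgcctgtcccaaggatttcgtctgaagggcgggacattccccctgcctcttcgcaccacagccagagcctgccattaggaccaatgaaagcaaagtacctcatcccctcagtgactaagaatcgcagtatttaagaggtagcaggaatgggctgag
Over the 31 of 37 higher genes with a promoter entry, 0 held the element, as did 0 of 11 of the lower genes. Of all 27305 promoters, 106 held it, or 0.4%, so 0 in sets of this size cannot set them apart from other genes. A half-site of the element, TGTTCT, was in 4 of the 31 higher genes (12.9%) and 4 of the 11 lower ones (36.4%). It was in 14.9% of all promoters and in 9.8% of those of genes kept.

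Of the 37 genes higher in both receptor lines, 3 were on the list of S100, SPRR and epidermal differentiation genes, 2 on the mitosis list and 2 on the interferon list. Beside S100A8, the first list gave SPRR3 (0.63, 0.39 and -0.04 in iKR, iWT and iEV) and IVL, involucrin (0.33, 0.36 and 0.03). Of 28 measured S100, SPRR and epidermal differentiation genes, 4 were past 1.2 fold higher in iKR (14.3%, against 2.06% of all genes), 4 in iWT (14.3%, against 2.14%) and 2 in iEV (7.14%, against 1.1%), and 0 were lower in any line. The list's medians of -0.01, 0.03 and 0.01 were close to those of all genes (-0.00, 0.01 and -0.01), so its members that moved were a minority. SPRR3 was at 12.42 with AP21967 and 11.79 without in iKR, at 11.85 and 11.45 in iWT, and at 10.23 and 10.27 in iEV, and was thus another gene whose level in the receptor lines was above iEV throughout.

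APOBEC3B, a DNA cytidine deaminase, was at 10.84 with AP21967 and 10.28 without in iKR, at 10.18 and 9.74 in iWT, and at 9.66 and 9.60 in iEV. Its differences were 0.56, 0.44 and 0.06 in iKR, iWT and iEV. HMMR, a hyaluronan receptor gene that also acts at the spindle, had 0.39, 0.38 and -0.00, and STIL, a centriole duplication gene, had 0.36, 0.37 and 0.02. SLC27A2, a fatty acid transport and activation gene, had 0.36, 0.45 and -0.00 (its other probe set gave 0.16, 0.07 and -0.04), and TUBA1A, an alpha tubulin gene, had 0.36, 0.34 and -0.05. IFI27, an interferon-induced gene, had 0.39, 0.52 and -0.08. None was called by limma. With R5020, only 7 of the 37 genes were higher with AP21967 in both lines, 9 in iKR and 21 in iWT. Over all genes 31.4% were above 0 in both lines, 56.5% in iKR and 48.2% in iWT. TIMP1 and S100A8 were among the 7.

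The genes lower in both receptor lines were of mixed function. EP300, a histone acetyltransferase and coactivator of many transcription factors, had the largest decrease, -0.58 in iKR and -0.39 in iWT against 0.05 in iEV. It was at 8.25 with AP21967 and 8.82 without in iKR, at 8.29 and 8.68 in iWT, and at 8.21 and 8.16 in iEV. A second EP300 probe set gave 0.10, -0.12 and 0.03 in iKR, iWT and iEV, so the decrease was seen on 1 of 2 probe sets. EPRS1, the glutamyl-prolyl tRNA synthetase, had -0.34, -0.31 and 0.10, and its other probe sets gave -0.25, -0.28 and 0.06, and -0.01, -0.01 and -0.08. GTF2I, a transcription factor gene, had -0.33, -0.36 and 0.19. SLC7A2, a transporter of cationic amino acids, had -0.30, -0.35 and 0.13, and on the R5020 arrays -0.85 in iKR and -0.72 in iWT. ZNF224, a zinc finger gene, had -0.39, -0.32 and 0.06, and its other probe sets gave -0.15, 0.05 and 0.23, and 0.00, 0.01 and 0.08, so this decrease rested on 1 of 3. ANKRD42-DT, DLG2, GNG7 and TCAF1 lay between -0.29 and -0.38 in both receptor lines. The other 3 TCAF1 probe sets lay between -0.09 and 0.06 in iKR and between -0.33 and -0.03 in iWT. On the R5020 arrays of both lines 12 of these 15 were also below 0 with AP21967, against 26.7% of all genes.

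Differences shared by all 3 lines, which do not need a receptor, were examined next. Only IFIT1 was past 1.2 fold in the same direction in all of them, and no gene was lower. The limma fit of the mean difference over the 3 lines called 0 genes (0%), with a lowest adjusted p of 0.48. At an unadjusted p under 0.05 it had 501 genes higher (4.59%) and 480 lower. An exact test over 3 pairs of 1 value cannot go below a two-sided p of 0.25.

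IFIT1, an interferon-induced antiviral gene, was at 7.37 with AP21967 and 7.07 without in iKR, at 8.11 and 7.60 in iWT, and at 9.25 and 8.96 in iEV. The differences were 0.29, 0.51 and 0.29, with a mean of 0.36 and an SE of 0.06 (adjusted p = 0.48 by limma). Between R5020 arrays it was -0.25 in iKR and 0.20 in iWT. The lines differed by more than AP21967 did, since iEV without AP21967 was above iWT and iKR with it.

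The next genes by their smallest difference were ZNF426, ADGRE2, KRT76, ACTL6A, UBBP1, NDC80, RCC1, RND2 and RBM48, with smallest differences between 0.19 and 0.25. ACTL6A, a subunit of BAF chromatin remodelling complexes, had 0.28 in iKR, 0.23 in iWT and 0.38 in iEV. RCC1, the exchange factor for Ran, had 0.23, 0.19 and 0.24 on 1 probe set, while its other one gave 0.05, 0.05 and 0.13. RBM48 had 0.22, 0.19 and 0.50, but its other 2 probe sets gave -0.15 and -0.07 in iEV. On the lower side the genes were H4C8, CRYBA2, ITGAM, EAF2, ABO (on 1 of its 3 probe sets), H3C2, ENG, SYN3, GJA3 and SCRN3. H4C8 and H3C2 are histone genes and had -0.26, -0.22 and -0.22, and -0.23, -0.43 and -0.19 in iKR, iWT and iEV. H3C2 was at only 5.77 to 6.37 on the vehicle arrays, near the log2 6 used to keep genes. EAF2, a transcription elongation factor gene, had -0.20, -0.36 and -0.31, and on the R5020 arrays 1.185 in iKR and 1.324 in iWT. ENG, a co-receptor for TGF-beta, had -0.18 in all 3 lines on 1 probe set and -0.16, 0.08 and 0.08 on the other.

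No single gene was called, but genes of mitosis lay mostly above 0. Of 33 measured genes of mitosis and chromosome segregation, 31 were above 0 in iKR, 30 in iWT and 29 in iEV, and 25 were above 0 in all 3 lines. Over all genes 15.8% were above 0 in all 3. The list's medians were 0.16 in iKR, 0.24 in iWT and 0.11 in iEV, against -0.00, 0.01 and -0.01 over all genes. In the limma fit over the 3 lines, 22 of the 33 (66.7%) reached a p under 0.05 before adjustment, all on the higher side. Over all genes 4.59% reached it on that side. After adjustment over all genes, 0 of the 33 passed. The shift was thus present in the line that has no receptor, and past 1.2 fold there were 6 genes in iKR (18.2%, against 2.06% of all genes), 7 in iWT (21.2%, against 2.14%) and 0 in iEV. In the fit of the receptor lines over iEV, 3 of the 33 on the higher side and 1 on the lower reached a p under 0.05 before adjustment. Over all genes 5.40% did so on the higher side and 3.66% on the lower.

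NDC80, a kinetochore component, was at 9.39 with AP21967 and 9.10 without in iKR, at 8.89 and 8.42 in iWT, and at 9.96 and 9.76 in iEV. CDK1, the main mitotic kinase, was at 11.78 and 11.51 in iKR, at 11.39 and 11.15 in iWT, and at 12.33 and 12.20 in iEV. KIF23, a kinesin of the central spindle, was at 9.37 and 9.12 in iKR, at 8.79 and 8.51 in iWT, and at 9.28 and 9.14 in iEV. In each line the induced array was the higher of its pair for all 3 genes, whereas the lines themselves stood up to more than 1 unit apart. The mean differences were 0.32 for NDC80 (SE 0.06), 0.21 for CDK1 (SE 0.05) and 0.23 for KIF23 (SE 0.05), all with an adjusted p of 0.48 by limma. Other members were of like size, such as KIF11, a spindle motor (0.18, 0.19 and 0.26 in iKR, iWT and iEV), CCNB1, cyclin B1 (0.22, 0.25 and 0.13), and CDC20, an activator of the anaphase-promoting complex (0.25, 0.32 and 0.12). The members that were below 0 in a line were CENPF, PLK1, CENPA, CDC25C, TOP2A, CENPE, ASPM and KIF4A.

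The mean level of the 33 mitosis genes was 10.15 with AP21967 and 9.99 without in iKR, 9.63 and 9.43 in iWT, and 10.34 and 10.25 in iEV. On the R5020 arrays it was 9.95 with AP21967 and 10.01 without in iKR, and 9.51 and 9.47 in iWT, so the shift did not recur there, and R5020 without AP21967 left the mean close to that of vehicle. Whether more cells were dividing or each cell held more of these mRNAs cannot be told apart in RNA from whole cultures. Genes of S phase and DNA replication were shifted less. Their medians were 0.11, 0.07 and 0.07 in iKR, iWT and iEV over 35 genes, with 17 above 0 in all 3 lines (48.6%, against 15.8% of all genes). In the limma fit over the 3 lines 11 reached a p under 0.05 before adjustment, all on the higher side. Over all genes 4.59% did so on that side. PCNA, the sliding clamp of DNA replication, had 0.31, 0.27 and 0.17.

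**Figure D3:**
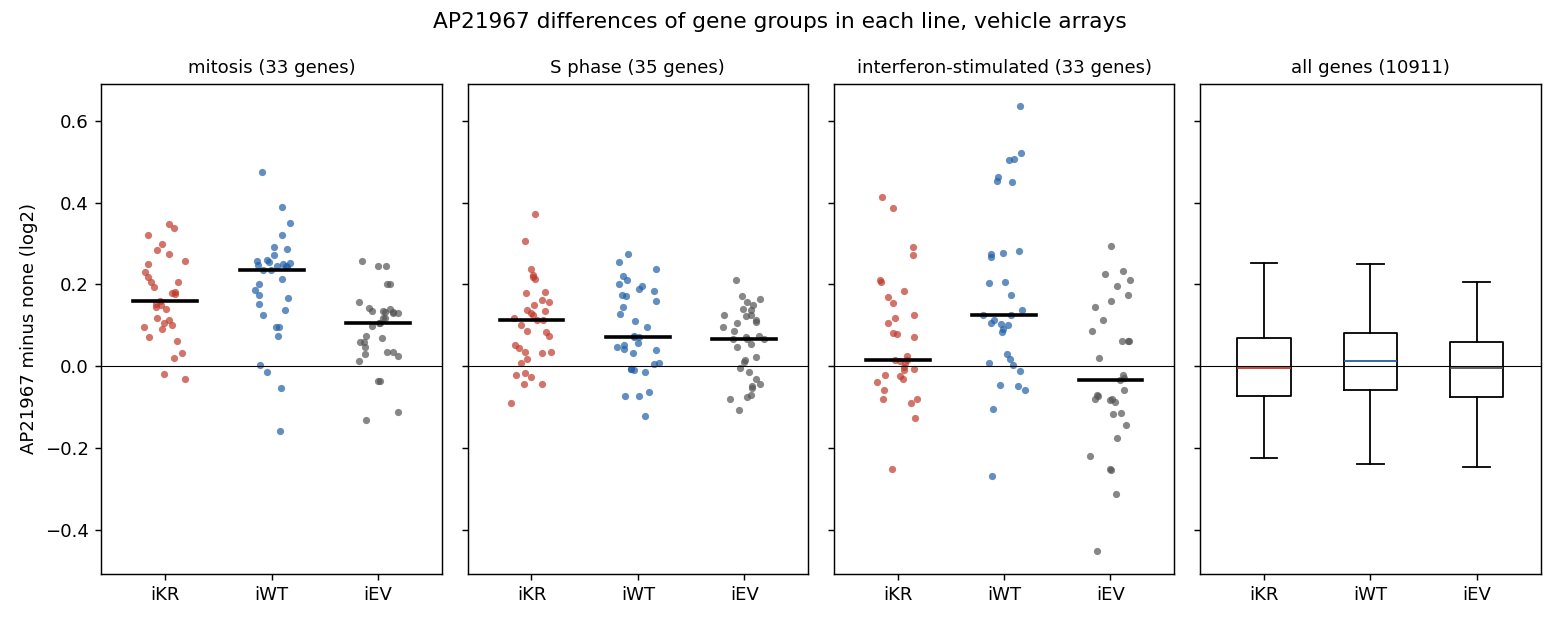
AP21967 minus no AP21967 differences (log2, y axis) of single genes in iKR, iWT and iEV (x axis), with black bars at the medians, for 3 gene lists; boxes for all 10911 genes give quartiles, with whiskers over the central 95%. Mitosis genes lie above 0 in every line (medians of 0.16, 0.24 and 0.11), and interferon-stimulated genes spread upward in iWT.

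Promoters of mitosis genes are known for a CCAAT box and for the cell cycle homology region, TTTGAA, through which cell cycle genes are repressed in resting cells. Of the 27 mitosis genes with a RefSeq promoter entry, 17 held TTTGAA on either strand between 250 bases before and 50 after the start (63.0%), against 15.4% of all promoters, and 22 held CCAAT (81.5%), against 35.7%. The letters of these motifs do not overlap. Among the genes higher in both receptor lines TTTGAA was found in 4 of 31 (12.9%). The 250 bases before KIF23 (chr15:69414099-69414348, plus strand) and CDK1 (chr10:60778081-60778330, plus strand) are shown with TTTGAA in capitals, as examples of members that hold it. The 250 bases before NDC80 did not hold it. A match is a description and no evidence of a working site.
KIF23: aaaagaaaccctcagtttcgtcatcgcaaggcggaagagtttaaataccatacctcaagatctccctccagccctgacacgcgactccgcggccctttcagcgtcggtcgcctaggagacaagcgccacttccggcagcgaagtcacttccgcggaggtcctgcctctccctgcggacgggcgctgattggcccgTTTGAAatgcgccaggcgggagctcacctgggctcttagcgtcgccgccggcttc
CDK1: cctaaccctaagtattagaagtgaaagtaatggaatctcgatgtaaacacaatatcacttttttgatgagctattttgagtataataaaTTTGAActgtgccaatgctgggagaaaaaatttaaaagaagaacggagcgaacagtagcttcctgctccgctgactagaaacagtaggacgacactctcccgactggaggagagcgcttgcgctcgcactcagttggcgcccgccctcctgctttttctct

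Interferon-stimulated genes moved mainly in iWT. Of 33 measured, 11 were past 1.2 fold higher in iWT and 1 lower, against 4 and 0 in iKR and 1 and 2 in iEV. The higher ones were 33.3% of the list in iWT, 12.1% in iKR and 3.03% in iEV, against 2.14%, 2.06% and 1.1% of all genes. The lower ones were 3.03% of the list in iWT and 6.06% in iEV, against 1.74% and 1.91% of all genes. The medians were 0.02 in iKR, 0.13 in iWT and -0.03 in iEV. By limma 0 were called in either fit. Before adjustment, a p under 0.05 was reached by 9 genes on the higher side and 1 on the lower over the 3 lines, and by 9 and 0 in the receptor lines over iEV. Over all genes these p values were reached by 4.59% and 4.40% over the 3 lines, and by 5.40% and 3.66% in the receptor lines over iEV.

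MX1, an antiviral GTPase, was at 8.65 with AP21967 and 8.38 without in iKR, at 9.97 and 9.33 in iWT, and at 10.85 and 10.88 in iEV. ISG15, a ubiquitin-like modifier, had differences of 0.17 in iKR, 0.45 in iWT and -0.08 in iEV, and IFITM1, a membrane restriction factor, had 0.21, 0.46 and -0.18. IFI6 had -0.01, 0.50 and 0.17. The differences of these genes were thus largest in iWT, smaller in iKR and mixed in sign in iEV, whereas the level of MX1 was highest in iEV. OAS1, an antiviral enzyme, had 0.19, 0.45 and 0.21 (its other probe set gave 0.29, 0.26 and -0.07), and IFI44L had 0.21, 0.00 and -0.45. The mean of the list was 8.31 with AP21967 and 8.14 without in iWT, 8.03 and 7.97 in iKR, and 8.71 and 8.73 in iEV. On the R5020 arrays of iWT it was 8.29 with AP21967 and 8.28 without, so the iWT vehicle array without AP21967 was the lowest of the 4 in that line. Its part in the difference was not tested.

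The interferon-stimulated response element, GAAANNGAAA on either strand, was found in 17 of the 26 list members with a promoter entry (65.4%), against 3.6% of all promoters. The 250 bases before MX1 did not hold the element. IFIT1, the gene past 1.2 fold in all 3 lines, carries it at chr10:89392373-89392622, plus strand, shown with both matches in capitals.
IFIT1: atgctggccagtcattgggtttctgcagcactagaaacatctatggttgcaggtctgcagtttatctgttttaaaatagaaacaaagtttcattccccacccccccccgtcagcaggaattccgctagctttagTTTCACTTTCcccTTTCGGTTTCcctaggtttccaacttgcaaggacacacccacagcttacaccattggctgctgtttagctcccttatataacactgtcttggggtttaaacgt

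Most genes past 1.5 fold were so in a single line, and several rested on 1 probe set. HMGCS1, which encodes the cytosolic HMG-CoA synthase of sterol synthesis, was at 10.32 with AP21967 and 9.38 without in iKR, at 10.54 and 10.62 in iWT, and at 10.69 and 10.23 in iEV. The iKR array without AP21967 was thus the low one, and a second probe set gave 0.14, 0.09 and 0.13 in iKR, iWT and iEV, against 0.94, -0.09 and 0.46 on the first. APP, the amyloid precursor protein gene, had 0.90, -0.12 and 0.42, with 0.42, 0.10 and 0.17 and with 0.12, -0.11 and -0.03 on its other probe sets. COL4A6, a basement membrane collagen gene, had 0.72 in iKR, against 0.13 and 0.11 on its other probe sets. HIRA, a histone chaperone gene, had 0.74 in iKR, -0.10 in iWT and 0.15 in iEV, and LMNB1, lamin B1, had 0.59, 0.18 and 0.14. PAQR3 and KCNV1 were the other genes past 1.5 fold in iKR, with 0.65 and 0.61, and a second KCNV1 probe set gave -0.10.

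In iWT the genes past 1.5 fold beside the 3 shared with iKR were MX1 (0.64), NUDT7 (0.63) and IL32, a cytokine gene (0.61), on the higher side, and GASK1B (-0.71), KCNK10, a potassium channel gene (-0.65), and ATP13A3 (-0.62) on the lower side. A second ATP13A3 probe set gave 0.08 in iWT. KCNK10 was at 5.87 with AP21967 and 6.52 without in iWT, near the log2 6 used to keep genes. In iEV they were GNL3L, a nucleolar GTPase gene (0.81), and GATC (0.61) on the higher side. QPCT (-0.73) and CDC42EP3 (-0.63) were on the lower side. In iEV QPCT was at 5.27 with AP21967 and 6.00 without. Only the latter array reached the log2 6 needed to keep a gene, so its decrease follows in part from that rule. The other probe sets of GNL3L gave 0.28, 0.16 and -0.01 in iEV and those of CDC42EP3 gave 0.06 and -0.00. Among genes under 1.2 fold in both receptor lines, RFWD3, MAGT1, TCF15 and PRRG4 were also higher in iEV (0.51 to 0.54, with 0.08 on a second MAGT1 probe set), and SLC22A2, RAG1 and HAND1 lower (-0.49 to -0.52). Apart from QPCT, differences of this size were therefore found between the arrays of a line with no receptor.

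Pathways that a rapamycin analog could touch were then examined. FKBP1A, the immunophilin that rapamycin binds, had differences of 0.02 in iKR, -0.06 in iWT and 0.18 in iEV. Those of MTOR were -0.02, 0.13 and 0.06 in iKR, iWT and iEV. Of 24 genes of the mTOR complexes and their regulators, 1 was past 1.2 fold, lower in iKR (4.17%, against 1.35% of all genes). Their medians were -0.02, 0.01 and 0.01. The 15 FK506-binding protein genes had medians of -0.08, -0.01 and 0.08.

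Lists of transcripts downstream of mTOR were examined in the same way. Of 52 genes of cytosolic ribosomal proteins, 0 were past 1.2 fold in any line, with medians of 0.01, -0.00 and 0.00. Among 24 genes of sterol and fatty acid synthesis, only HMGCS1 was past 1.2 fold upward in iKR (4.17%, against 2.06% of all genes) and in iEV (4.17%, against 1.1%). Downward, 2 genes were past it in iKR (8.33%, against 1.35%), and 0 passed it in iWT in either direction. FASN, fatty acid synthase, had -0.27, -0.25 and 0.24 in iKR, iWT and iEV. It was not called in the main fit of the receptor lines over iEV (adjusted p = 0.35 by limma). With an intensity trend in the prior it was called lower (adjusted p = 0.0039 by limma). Among 29 targets of ATF4, 1 was higher in iKR (3.45%, against 2.06% of all genes) and 2 lower in iEV (6.90%, against 1.91%).

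**Figure D4:**
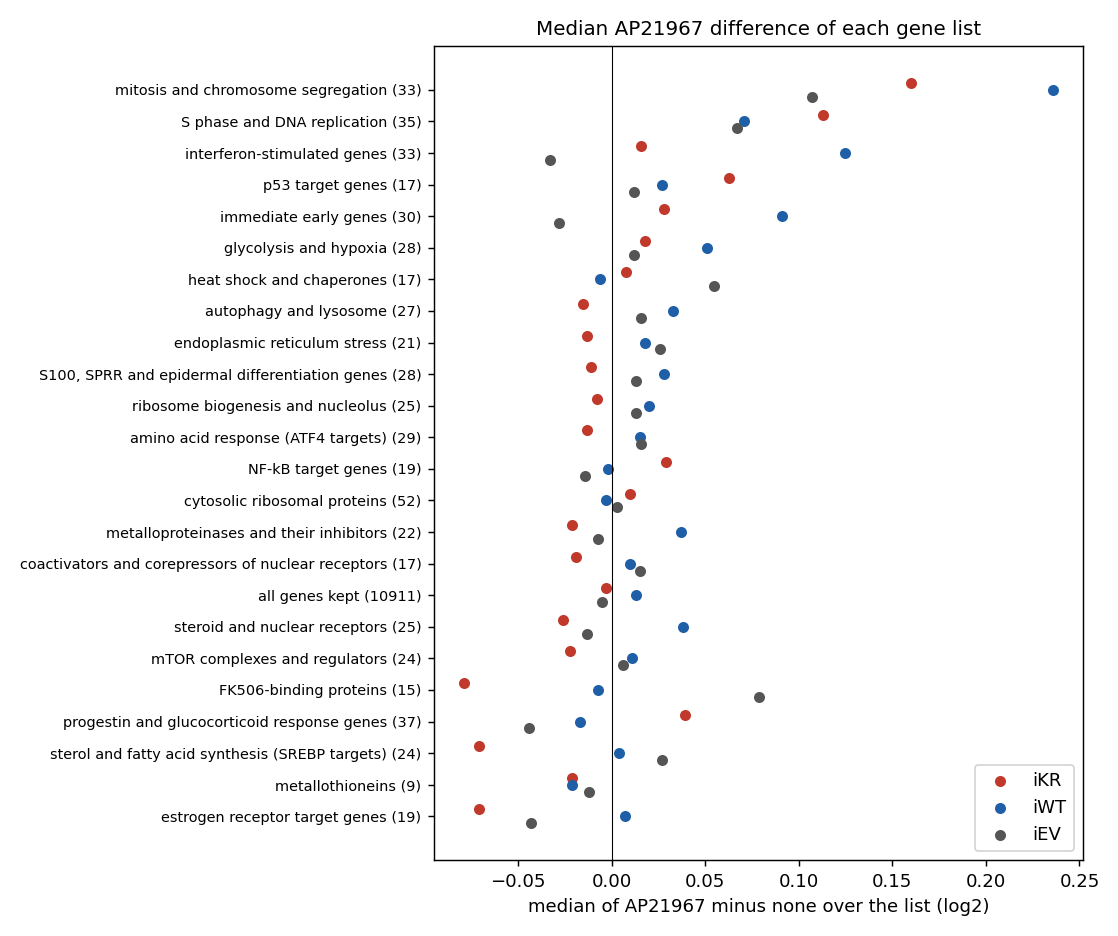
Median AP21967 minus no AP21967 difference (log2, x axis) of each gene list in iKR, iWT and iEV on vehicle arrays, with the number of measured genes in brackets. Mitosis genes have the highest median of the lists in each line (0.16, 0.24 and 0.11), and interferon-stimulated genes come next in iWT (0.13).

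Genes that the liganded receptor drives had medians close to those of all genes with AP21967 alone. Of 37 progestin and glucocorticoid response genes, 2 were past 1.2 fold higher in iKR (5.41%, against 2.06% of all genes). On the lower side there were 3 in iWT (8.11%, against 1.74%) and 1 in iEV (2.70%, against 1.91%). Their medians were 0.04, -0.02 and -0.04 in iKR, iWT and iEV on vehicle arrays, and 0.44 in iKR and 0.29 in iWT between the R5020 arrays. FKBP5, a co-chaperone of steroid receptors and a standard progestin target, was at 7.88 with AP21967 and 8.04 without in iKR, at 7.81 and 8.25 in iWT, and at 9.15 and 8.98 in iEV. Its differences were -0.16, -0.43 and 0.18, against 2.06 in iKR and 1.65 in iWT between the R5020 arrays. The study's list of 265 measured genes raised by R5020 in stable cells had medians of 0.01, 0.02 and -0.01 in iKR, iWT and iEV.

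Lists of genes that the study gave as raised without ligand were examined on the same arrays. They were chosen partly on these samples, so their direction is not independent evidence. For 99 genes raised through both receptors the medians were -0.03 in iKR, -0.01 in iWT and -0.04 in iEV. Past 1.2 fold, 3, 2 and 2 genes were higher (3.03%, 2.02% and 2.02%, against 2.06%, 2.14% and 1.1% of all genes). The 3 in iKR included PGR itself (1.43), the gene of the induced receptor. On the lower side there were 6, 5 and 4 (6.06%, 5.05% and 4.04%, against 1.35%, 1.74% and 1.91%). For 64 genes raised through the K388R receptor, 9 were past 1.2 fold upward (14.1%, against 2.06% of all genes) and 6 downward (9.38%, against 1.35%) in iKR. In iWT 3 were past it in each direction (4.69%, against 2.14% upward and 1.74% downward), and in iEV 2 upward (3.12%, against 1.1%) and 1 downward (1.56%, against 1.91%). For 132 genes raised through the wild-type receptor, 1 was past it upward (0.758%) and 3 downward (2.27%) in iKR, 4 (3.03%) and 2 (1.52%) in iWT, and 0 and 1 (0.758%) in iEV. A list of 19 measured genes from earlier studies of unliganded PR-B had medians of 0.03, 0.06 and -0.01. The lists' medians lay near those of all genes in each line, while the K388R list in iKR had more genes past 1.2 fold in both directions than all genes had.

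Immediate early genes, which growth factor signalling switches on, had medians of 0.03, 0.09 and -0.03 in iKR, iWT and iEV over 30 genes. DUSP6, a phosphatase that limits ERK signalling, was at 8.41 with AP21967 and 8.10 without in iKR, at 9.32 and 8.97 in iWT, and at 9.03 and 8.90 in iEV. It had differences of 0.31, 0.35 and 0.13 (adjusted p = 0.48 for the 3 lines by limma), and on the R5020 arrays -0.01 in iKR and -0.91 in iWT. Estrogen receptor target genes, 19 measured, had medians of -0.07, 0.01 and -0.04.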

How the data were processed

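RNA of 10 conditions was measured with 1 array each. The deposited values are log2 probe set signals that the authors made in R by Robust Multi-array Average, with background adjustment and quantile normalization. From these, 19070 of 22277 probe sets had 1 gene in GEO's platform annotation (1043 several, 2164 none), and the probe set with the highest mean stood for each of 11963 genes. A gene was kept if its signal was log2 6 or more on any array (10911 genes). Differences are between single arrays of a line.

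Linear models (limma 3.58.1, R 4.3.3) of the 6 vehicle arrays had line as a block, and estimated the mean AP21967 difference and that of iKR and iWT over iEV. Genes were called at a Benjamini-Hochberg adjusted p under 0.05. Both fits were tested on simulated data. Alternatives were other probe set rules, level filters, normalizations, fold thresholds and priors, and leaving out a line. Members, lists and the named-gene rule (the largest differences in each class, genes past 1.5 fold, called genes and list members) were chosen with earlier results of these data known. Whether arrays came from separate cultures is not given, and no condition has a second array. The p values thus measure the spread of the AP21967 difference between lines, moderated by limma's prior, and not a spread within a condition. Promoter sequences are RefSeq's. Python 3.11.15, pandas 2.3.3 and matplotlib 3.10.9 were used.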

Additional observations from a re-analysis of the deposited data

Results flagged for a closer look

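3 genes were past 1.2 fold lower in both receptor lines and past it higher in iEV, and 0 went the other way. GASK1B had differences of -0.28 in iKR, -0.71 in iWT and 0.39 in iEV. In iKR it was at 5.47 with AP21967 and 5.745 without, both under the log2 6 used to keep genes. OPA3, a mitochondrial protein gene, had -0.28, -0.28 and 0.32, and PPP1R37, a phosphatase regulatory subunit gene, had -0.28, -0.36 and 0.28 in the same order of lines. The difference between the receptor lines and iEV was not called for any of them (adjusted p = 0.35 each by limma). On the R5020 arrays the AP21967 differences were 0.02 in iKR and 0.00 in iWT for GASK1B, 0.19 and 0.12 for OPA3, and 0.06 and -0.04 for PPP1R37, so the decrease did not recur there.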

How the results depend on the processing

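With 1 array per condition, the number of arrays limits the precision. The test shared by 3 lines called 0 genes higher under every alternative but 1: leaving out 1 pair gave 0 to 3 genes higher, the 3 without iEV. For the receptor lines over iEV, an intensity trend in the prior gave 6 higher (TIMP1, S100A8, TM4SF1, SPRR3, CIB2 and CDC42EP3) and 7 lower, and genes with a mean of log2 7 or more gave 1 higher, TM4SF1 (adjusted p = 0.0497 by limma). With the trend, the adjusted p by limma was 0.0039 for TIMP1, S100A8 and FASN, of which FASN was on the lower side. It was 0.0046 for TM4SF1, 0.013 for CIB2, 0.022 for SPRR3 and for GTF2I, and 0.024 to 0.048 for the other genes called. All other alternatives called 0.

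Counts followed the fold threshold. Past 1.3 fold there were 68 genes in iKR, 85 in iWT and 57 in iEV, past 2.0 fold 1, 0 and 0, and with the mean of probe sets 7 past 1.5 fold in iKR. In all 3 lines, 41 genes were higher and 38 lower past 1.1 fold, 0 higher past 1.3 fold, 3 higher after cyclic loess and 2 after median centring. In both receptor lines and not iEV, 260 were higher and 180 lower at 1.1 fold, 6 and 1 at 1.3 fold, and 8 lower without _x_at and _s_at probe sets. The mitosis medians, checked under 6 alternatives chosen after seeing the data, stayed between 0.16 and 0.18 in iKR, 0.18 and 0.24 in iWT, and 0.08 and 0.13 in iEV. The PGR differences moved by less than the spread between lines. Each group holds 1 array, and the pairing is by line, which is the block of the fits; without it, 0 genes were called as well.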
